A study of Arabidopsis thaliana with 8 samples.

Results

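The genes described here belong to the machinery that sorts cargo to the vacuole, recycles cytoplasm by autophagy and moves membrane between compartments. They were measured in developing seeds of the Arabidopsis thaliana mutant ttg1 and of wild-type Ler, the Landsberg erecta accession. A gene was taken when the platform annotation named it alone for a probe set and its symbol began with VPS, ATG or SYP followed by a digit, or with PRA1, EXO70 or RAB. This gave 28 probe sets for 28 genes, out of 13513 tested probe sets with a single gene and 22746 tested in all. They were 10 VPS, 8 ATG and 9 PRA1 genes and 1 RAB gene. No probe set had a SYP or EXO70 symbol, and 2 more probe sets named a PRA1 gene together with another gene and were left out. Besides the 13513 with a single gene, 503 tested probe sets named several genes and the others named none. A gene of these families can therefore be on the array without having been taken, also under another name. No array value entered this choice by name. The name families were nevertheless proposed with earlier results of the same comparison known, so the counts below describe these genes and support nothing further.

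Total RNA of whole seeds, whose embryos ranged from globular to walking-stick, was hybridised to Affymetrix ATH1 arrays, 1 array for each of 4 ttg1 and 4 Ler biological replicates. TTG1, a WD40-repeat partner of bHLH and MYB transcription factors, is needed for seed coat pigment and mucilage, trichomes and root epidermis patterning. The labels name the mutant genotype as ttg1 and the control as wild type Ler, and give no treatment, growth condition or description of the allele. Precision is limited by having 4 arrays for each genotype. The labels do not say whether replicates came from separately grown plants, so that p-values reflect only how far these samples differ. All values are on a log2 scale and relative to the median of the same probe set over the 8 arrays. They compare arrays and give no level of a gene, so no gene can be set above another in abundance.

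Membrane proteins bound for destruction are packed into vesicles inside the late endosome by the ESCRT complexes, which act in sequence. ESCRT-III subunits form the filament that pinches these vesicles off, and the late endosome then fuses with the vacuole. In autophagy the small ubiquitin-like protein ATG8 is joined to a membrane lipid, with ATG3 as the conjugating enzyme, and marks the membrane that encloses cytoplasm for delivery to the vacuole. RAB GTPases give membranes their identity, and PRA1 proteins are small membrane proteins that bind prenylated RAB GTPases. Epidermal cells of the seed coat secrete large amounts of mucilage, and the embryo and endosperm fill storage vacuoles. RNA of a whole seed mixes these tissues, and in such samples fewer cells of a type and less RNA per cell cannot be told apart.

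Transcripts of 3 of the 28 genes were lower in ttg1 and none was higher. They were VPS24.1, an ESCRT-III subunit, PRA1.B4, a PRA1 protein, and ATG8C, an ATG8 protein, with falls of 1.59-fold, 1.51-fold and 1.4-fold. In the limma fit of the whole table, with Benjamini-Hochberg adjustment and a threshold of 0.05, 10.7% of these genes passed, and 5.72% of all tested probe sets did. The lower direction alone took 3.96% of all tested probe sets and the higher 1.76%. The call of PRA1.B4 was kept whichever array was left out. Those of VPS24.1 and ATG8C were not, as given with their values below. With 1 array left out, 1 to 2 of the 28 genes passed, beside 2.96% to 5.21% of all tested probe sets. No gene of the 28 changed by 2-fold or more.

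Of the 28 log2 changes, 23 lay below 0 and 5 above, with a median of -0.22 and a range from -0.67 to 0.15. Over all tested probe sets 44.4% lay below 0 and the median was 0.03. Of the 28 genes, 11 had an unadjusted p under 0.05, all with ttg1 lower, which is 39.3% beside 23.0% of all tested probe sets. In 7 genes, 25% of them, the genotypes did not overlap, each time with ttg1 below, whereas 14.8% of all tested probe sets separated in either direction and 8.33% with ttg1 below. These 7 were VPS24.1, VPS60.1, VPS46.2, VPS2.1, ATG8C, PRA1.B4 and PRA1.E. The shares are set side by side with no test of the list. Without ttg1 replicate 4 the median of the 28 log2 changes was -0.14 and 21 lay below 0.

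**Figure D1:**
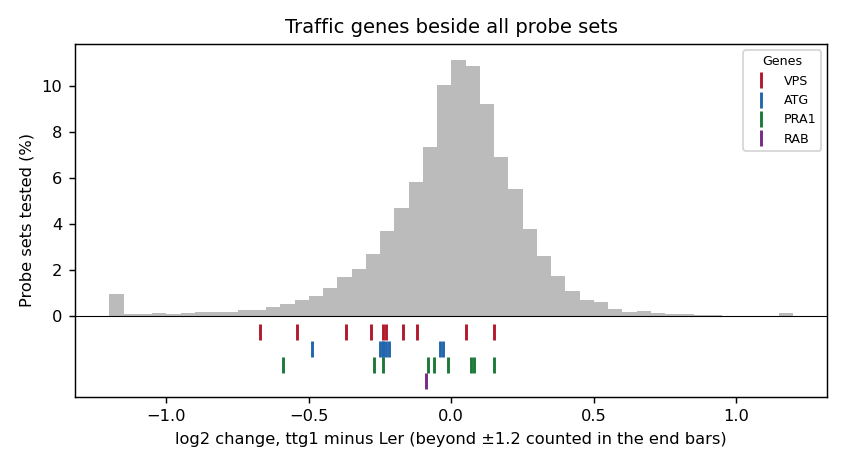
The log2 change of each traffic gene (coloured ticks, 1 row for each name family) below a histogram of the log2 change of all 22746 tested probe sets, in percent of probe sets. The 8 ATG ticks all lie below 0, and the VPS ticks reach from -0.67 to 0.15.

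The ESCRT genes were 1 of ESCRT-II, VPS22, and 8 of ESCRT-III and its associated proteins. Of the 8, 1 passed the test, 7 had a log2 change below 0, and their median was -0.26. Core subunits of ESCRT-III are encoded by 5 of them: VPS20.1, which starts the filament, and the copies VPS24.1, VPS24.2, VPS2.1 and VPS2.2, which complete it.

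VPS24.1 (AT5G22950) had log2 values of -0.01, -0.12, -0.59 and -0.75 in ttg1 replicates 1 to 4. In Ler replicates 1 to 4 the values were 0.47, 0.37, 0.37 and 0.01. The groups did not overlap, but ttg1 replicate 1 and Ler replicate 4 nearly met, and the mutant arrays fell into a pair near 0 and a pair far below it. Mutant arrays averaged -0.37 ± 0.36 and wild-type arrays 0.31 ± 0.2 (SD, n = 4), and the log2 change of -0.67 ± 0.17 (SE) had an adjusted p of 0.0435 in limma. This was the widest spread within genotypes among the 28 genes, with a pooled SD of 0.29. Leaving out 1 array at a time, the call held in 3 of 8 fits. It was lost without Ler replicate 1 (adjusted p 0.122 in limma), 2 (0.131) or 3 (0.113) and without ttg1 replicate 3 (0.0959) or 4 (0.0718).

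VPS24.2 (AT3G45000), the second copy of the same subunit, had a log2 change of -0.28 with a 95% interval from -0.5 to -0.05, and did not pass (adjusted p 0.137 in limma). Its values were 0, -0.13, -0.09 and -0.13 in ttg1 and 0.43, 0.25, 0.09 and 0 in Ler, replicates 1 to 4 in each. The mutant arrays lay close together, while the wild-type arrays spread from the mutant level upwards. The value of VPS24.1 minus that of VPS24.2 within an array averaged -0.28 ± 0.33 in ttg1 and 0.11 ± 0.12 in Ler (SD, n = 4). Whether the change differs between the copies was not tested.

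None of the other core subunits passed the test. VPS20.1 had a log2 change of -0.37 with a 95% interval from -0.67 to -0.06 and an adjusted p of 0.144 in limma. Its lowest mutant value, -0.66, was again in ttg1 replicate 4, and the groups overlapped. VPS2.1 had -0.23 with an interval from -0.41 to -0.04 and groups that did not overlap. VPS2.2 had 0.05 with an interval from -0.13 to 0.23, so that of the core subunits it alone had an estimate above 0.

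**Figure D2:**
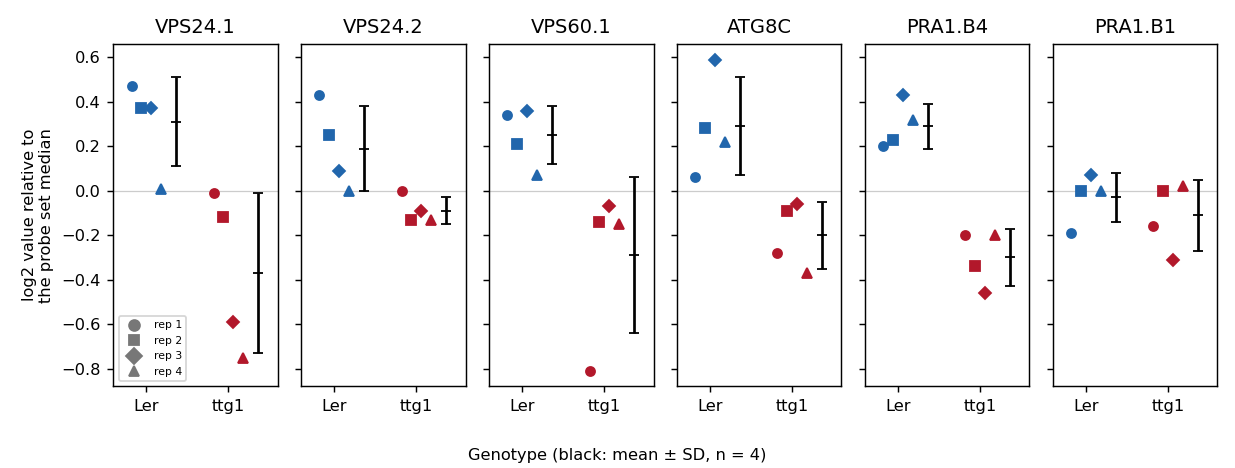
Log2 value of each array, relative to the probe set median, in Ler (blue) and ttg1 (red) for 6 genes, with marker shapes for replicates and the mean ± SD (n = 4) in black. VPS24.1, VPS60.1, ATG8C and PRA1.B4 separate by genotype, VPS60.1 has a single very low mutant array at -0.81, and PRA1.B1 overlaps between genotypes.

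The proteins associated with ESCRT-III, which act late in filament turnover, were VPS46.2 (CHMP1A), VPS60.1 and VPS60.2. VPS60.1 (AT3G10640) had values of -0.81, -0.14, -0.07 and -0.15 in ttg1 replicates 1 to 4. In Ler the values were 0.34, 0.21, 0.36 and 0.07. All mutant values lay below all wild-type values, and ttg1 replicate 1 lay far below the other mutant arrays. The log2 change was -0.54 ± 0.16 (SE), a 1.46-fold lower estimate, and the adjusted p of 0.0715 in limma did not pass. With quantile normalization of the deposited values it did (adjusted p 0.0339 in limma). VPS46.2 had a log2 change of -0.24 with a 95% interval from -0.45 to -0.03 and an adjusted p of 0.166, and VPS60.2 had -0.12 with an interval from -0.36 to 0.11.

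VPS22, the ESCRT-II subunit that hands cargo on to ESCRT-III, had the largest estimate above 0 among the VPS genes, 0.15 ± 0.11 (SE, adjusted p 0.432 in limma). Its values were 0.08, 0.22, 0.12 and -0.23 in ttg1 and 0.01, -0.01, -0.19 and -0.24 in Ler. The groups overlapped, and replicate 4 was the lowest array of both genotypes. VPS9B, a relative of the exchange factor that activates RAB GTPases of the endosome, had -0.17 with a 95% interval from -0.39 to 0.05.

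**Figure D3:**
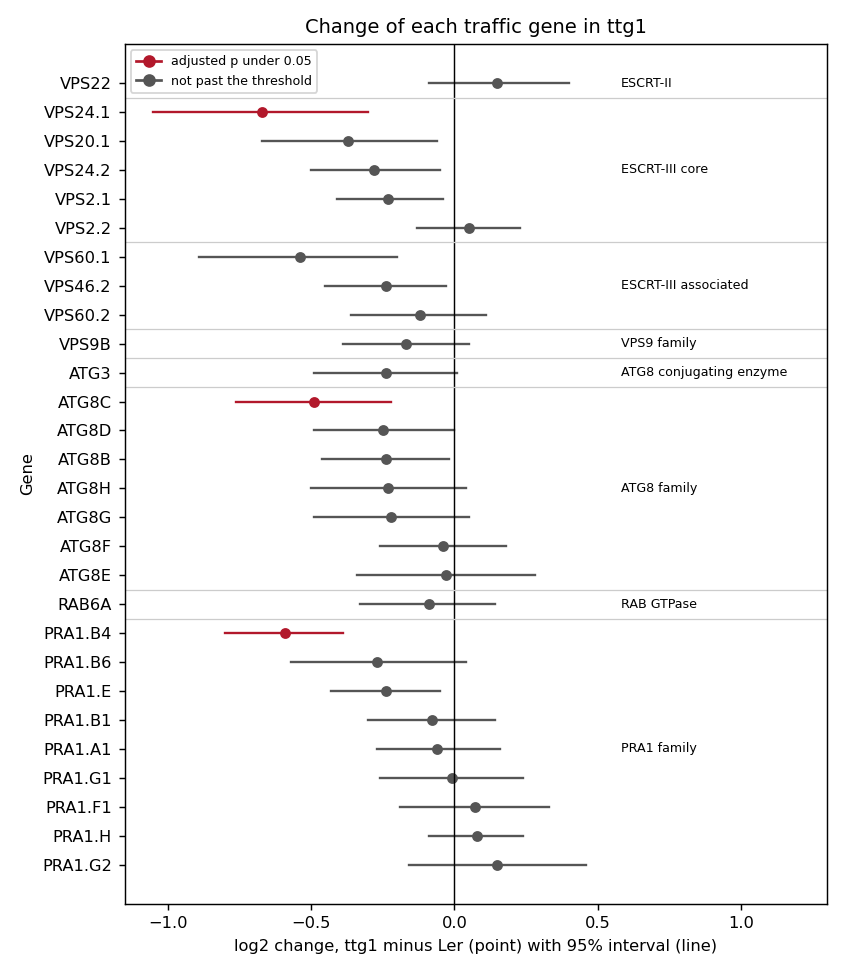
Log2 change in ttg1 relative to Ler for each of the 28 genes (points) with its 95% interval (lines), grouped by role, with genes past the adjusted p threshold in red. The 3 red genes are VPS24.1, ATG8C and PRA1.B4, and for 17 of the 28 genes the interval includes 0.

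All 8 autophagy genes, 7 of the ATG8 family and ATG3, had log2 changes below 0, with a median of -0.23, and 1 of them passed the test. ATG8C (AT1G62040) had values of -0.28, -0.09, -0.06 and -0.37 in ttg1 replicates 1 to 4. Its values in Ler were 0.06, 0.28, 0.59 and 0.22. The groups did not overlap, and the wild-type arrays spread widely, with replicate 3 well above the rest. Mutant arrays averaged -0.2 ± 0.15 and wild-type arrays 0.29 ± 0.22 (SD, n = 4), and the log2 change of -0.49 ± 0.12 (SE) had an adjusted p of 0.0429 in limma. Leaving out 1 array at a time, the call held only without Ler replicate 1 (adjusted p 0.0373 in limma). Without Ler replicate 2, 3 or 4 the adjusted p was 0.118, 0.102 and 0.0662, and without ttg1 replicates 1 to 4 in turn it was 0.0899, 0.0557, 0.0528 and 0.0808.

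The other ATG8 genes ranged from -0.25 for ATG8D to -0.03 for ATG8E, with adjusted p between 0.179 and 0.93 in limma. ATG8B had -0.24, ATG8H -0.23, ATG8G -0.22 and ATG8F -0.04, and in each of the 6 the genotypes overlapped. ATG3 had -0.24 with a 95% interval from -0.49 to 0.01 (adjusted p 0.232). In the mutant the lowest array of these 8 genes was replicate 1 or replicate 4 every time, 4 genes each. ATG8E, with one of the widest spreads, had values of -0.37, 0.07, 0.28 and -0.27 in ttg1 and 0, 0, 0.05 and -0.22 in Ler. Its mutant arrays lay on both sides of the wild-type arrays. ATG8H was at -0.59 and ATG8G at -0.44 in ttg1 replicate 4, while their other mutant values lay between -0.17 and 0.12.

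**Figure D4:**
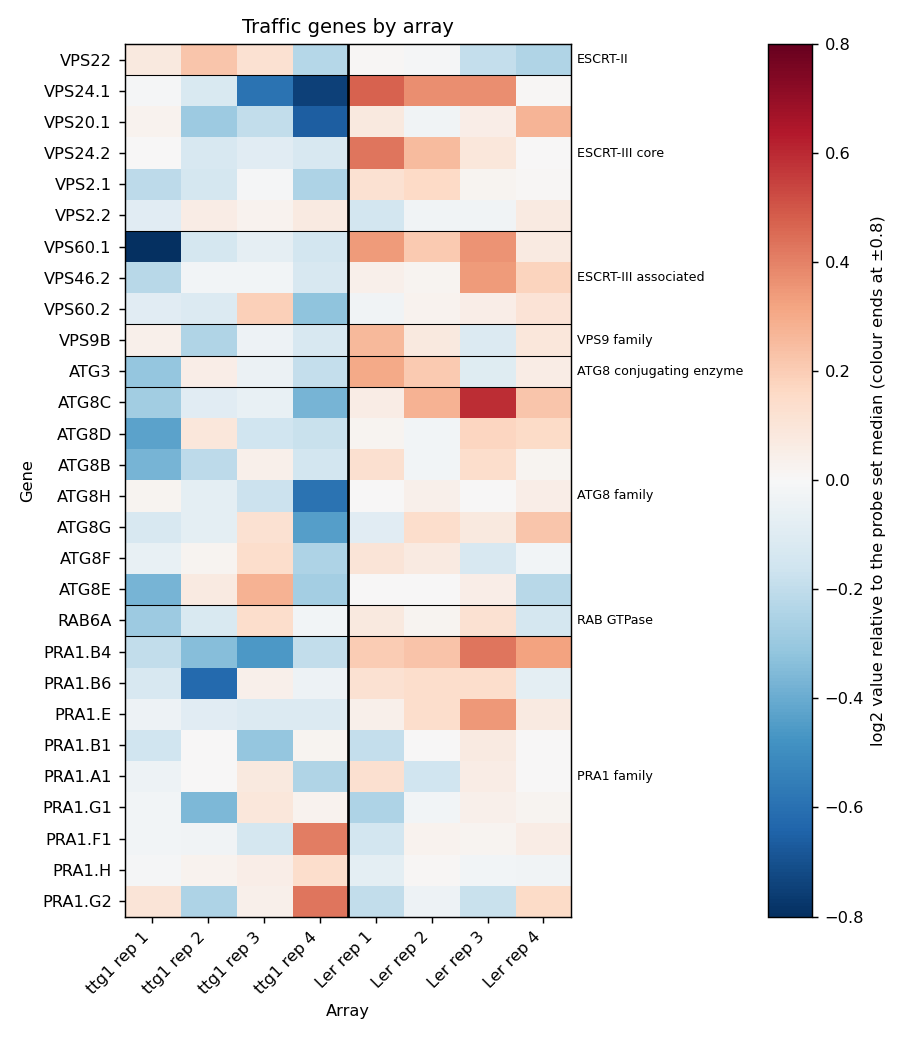
Log2 value of the 28 genes (rows, grouped by role) in the 4 ttg1 and 4 Ler arrays (columns), relative to the median of each probe set, with red above and blue below it. The ATG genes have medians of -0.3 and -0.26 in ttg1 replicates 1 and 4 and of -0.03 and -0.01 in replicates 2 and 3, and the PRA1 genes show both colours in the mutant.

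The single gene with a RAB symbol was RAB6A (AT2G44610), a GTPase of the Golgi apparatus also listed as RABH1B. The mutant replicates 1 to 4 read -0.29, -0.12, 0.14 and -0.02, and the wild-type replicates 0.08, 0.02, 0.12 and -0.14. The groups overlapped, and the log2 change of -0.09 had a 95% interval from -0.33 to 0.14 (adjusted p 0.636 in limma).

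Of the 9 PRA1 genes 1 passed the test, 6 had log2 changes below 0 and 3 above, and the median was -0.06. PRA1.B4 (AT2G38360) had values of -0.2, -0.34, -0.46 and -0.2 in ttg1 replicates 1 to 4. Its values in Ler were 0.2, 0.23, 0.43 and 0.32. The groups lay clearly apart and neither held an outlying array. Mutant arrays averaged -0.3 ± 0.13 and wild-type arrays 0.29 ± 0.1 (SD, n = 4), and the log2 change of -0.59 ± 0.09 (SE) had an adjusted p of 0.00361 in limma. Over 14 other settings, the 8 fits without 1 array included, its log2 change stayed between -0.67 and -0.54 and its adjusted p between 0.000632 and 0.0171. It was also the only one of the 28 genes past a threshold of 0.01.

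Among the genes taken, the others of the B group of PRA1 proteins were PRA1.B1 and PRA1.B6. PRA1.B1 had a log2 change of -0.08 with a 95% interval from -0.3 to 0.14. Its values were -0.16, 0, -0.31 and 0.02 in ttg1 and -0.19, 0, 0.07 and 0 in Ler, which overlapped. The value of PRA1.B4 minus that of PRA1.B1 within an array lay between -0.35 and -0.04 in ttg1 and between 0.23 and 0.38 in Ler. These ranges were apart. The value of PRA1.B4 minus that of PRA1.B6 lay between -0.5 and 0.28 in ttg1 and between 0.07 and 0.4 in Ler, which overlapped. Of 6 pairs of copies compared in this way, the ranges overlapped in 4, and no difference between copies was tested. In VPS24.1 and VPS24.2 the ranges barely parted, with the highest ttg1 and the lowest Ler difference both at 0.01 after rounding. The pairs were picked by hand, called genes among them. Differences with PRA1.B4 or VPS24.1 carry the change of that called gene, so they are not separate from its call. Each pair whose ranges parted holds PRA1.B4 or VPS24.1. PRA1.B6 had -0.27 with an interval from -0.57 to 0.04 (adjusted p 0.276 in limma). Its values were -0.13, -0.62, 0.04 and -0.04 in ttg1 and 0.12, 0.14, 0.14 and -0.08 in Ler, so the genotypes overlapped and ttg1 replicate 2 was lowest.

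The remaining PRA1 genes were PRA1.E with a log2 change of -0.24, PRA1.A1 with -0.06, PRA1.G1 with -0.01, PRA1.F1 with 0.07, PRA1.H with 0.08 and PRA1.G2 with 0.15. None passed the test, with adjusted p between 0.137 and 0.974 in limma. The mutant arrays of PRA1.E spread little, from -0.11 to -0.04, all below the lowest wild-type value of 0.04. PRA1.G2 read 0.1, -0.25, 0.04 and 0.43 in the mutant replicates 1 to 4, against -0.2, -0.04, -0.18 and 0.15 in the wild type. PRA1.F1 was likewise highest in ttg1 replicate 4, at 0.41. For both, replicate 4 was the highest array of each genotype.

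Of the 25 genes that did not pass, 23 had a 95% interval that stayed within a 1.5-fold change in either direction. The exceptions were VPS60.1 and VPS20.1, whose intervals reached -0.89 and -0.67. Among all 28 genes, 27 had an interval within a 2-fold change, and that of VPS24.1 reached -1.05. For 17 genes the interval included 0, so a difference was not detectable with these arrays.

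**Figure D5:**
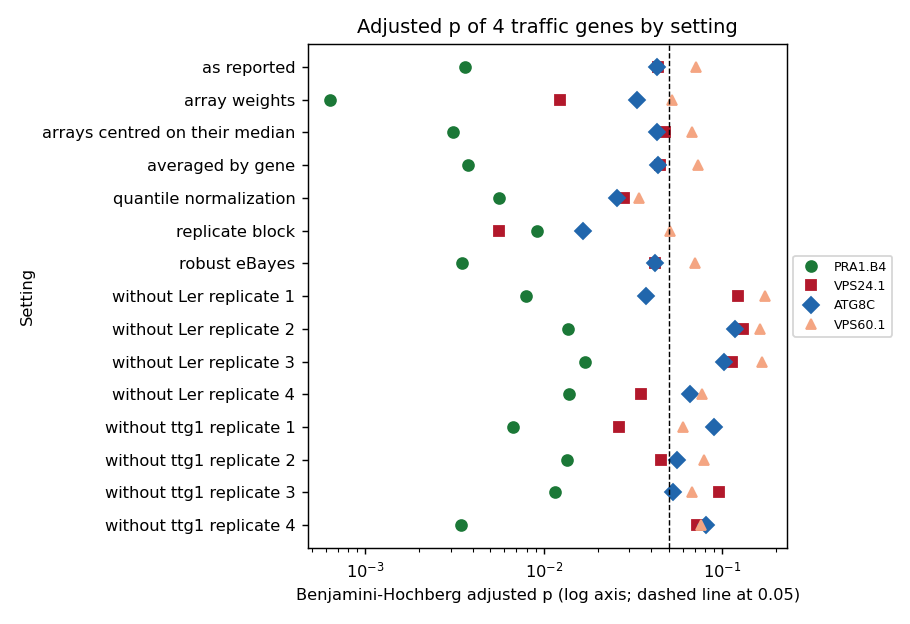
Benjamini-Hochberg adjusted p in limma (log axis) of 4 genes as reported and under each other processing or left-out array, with the threshold of 0.05 dashed. PRA1.B4 stays left of the line throughout, while VPS24.1 and ATG8C cross it when some arrays are left out.

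The spread within each genotype is a measure apart from the difference between genotypes. The pooled SD within genotypes ranged from 0.051 for PRA1.H to 0.29 for VPS24.1, with a median of 0.159 beside 0.152 for all tested probe sets. The mutant arrays spread more than the wild-type arrays in 21 of the 28 genes (75%), and in 69.2% of all tested probe sets. Among the ATG8 genes the median SD of the mutant arrays was 0.212, and that of the wild-type arrays 0.104. Over all tested probe sets these medians were 0.165 and 0.119. Of the 7 ATG8 genes 6 spread more in the mutant, while the called ATG8C had an SD of 0.15 in ttg1 and 0.22 in Ler. Over the 28 genes the median value of the mutant arrays 1 to 4 was -0.09, -0.09, -0.02 and -0.17, and it lay between 0.03 and 0.06 in the Ler arrays. Replicate 4 was the lowest mutant array for 10 of the 28 genes and replicate 1 for 9, and these arrays were lowest for 26.9% and 26.4% of all tested probe sets.

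Some other measures were highest in ttg1 replicate 4 among the mutant arrays. That array had the largest deviation from its group, with an SD over probe sets of 0.245 beside 0.115 to 0.184 in the other arrays. The mean of the embryo storage markers PAP85 and OLEO3, 2 of 23 on that list, ran from -0.7 to 1.43 in ttg1 and from -0.77 to 1.38 in Ler, with replicate 4 at the top of both ranges. The photosynthesis markers LHCB4.1 and RCA, 2 of 16, had a mean between -0.28 and 0.73 in ttg1, highest in replicate 4, and between -0.25 and 0 in Ler. The endosperm markers, 3 of 13, had a mean from -0.07 to 0.25 in ttg1 and from -0.05 to 0.01 in Ler. Of the silique wall markers 3 of 13 were matched, and their signs differed. Their mean ran from -0.39 to 0.06 in ttg1, with replicate 4 at 0.01, and from -0.09 to 0.11 in Ler. ADPG1, a polygalacturonase of pod opening, was lower in ttg1 (log2 change -0.6, adjusted p 0.0358 in limma). YAB3 had 0.67 with genotypes that did not overlap (adjusted p 0.116), and ALC had -0.47 (0.215). The seed coat pigment genes DFR and BAN, 2 of 27 seed coat markers, had log2 changes of -6.99 and -6.43. Markers were matched by symbol, so those without a match may still be on the array. Centred values do not show whether any marker is absent, and the part of these tissues in the values of the traffic genes was not tested.

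Partners of the same pathways under other names gave no call. Of 146 symbols on 7 lists 26 were matched by name, and 2 further symbols belonged to unrelated genes and were left out. A partner counts as measured when its symbol matched a probe set annotated with 1 gene, so the others may still be on the array. Of the 26, 0 passed the test in limma, beside 5.72% of all tested probe sets. Their median log2 change was -0.07, with 15 below 0 (57.7%, beside 44.4% of all) and 11 above. An unadjusted p under 0.05 was found for 8 (30.8%, beside 23.0% of all), and 4 did not overlap between genotypes (15.4%, beside 14.8% of all). Of the exocyst, which tethers secretory vesicles to the plasma membrane, 7 of 13 subunits were measured, from -0.34 for SEC6 to 0.15 for SEC5B. Of the SNARE proteins and their partners, which drive membrane fusion, 6 of 36 were measured, from -0.36 for AtSec20 to 0.14 for SEC1B, and the median was -0.14. The vacuolar processing enzymes, proteases of the vacuole, were measured as 4 of the 15 genes on the list of vacuolar sorting receptors and processing enzymes. They lay between -0.22 for DELTA-VPE and 0.13 for BETA-VPE.

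The partner genes nearest to the threshold were ARA6 (AT3G54840), a RAB5-type GTPase of the endosome, and AT1G09330, which RefSeq lists as ECH, a protein of the trans-Golgi network. ARA6 had a log2 change of -0.37 (adjusted p 0.0655 in limma), with mutant values from -0.55 to -0.08 below wild-type values from 0.08 to 0.18. AT1G09330 had -0.35 (adjusted p 0.0781), with values from -0.43 to -0.03 in ttg1 and from 0.03 to 0.23 in Ler. Both were among the 4 partners whose genotypes did not overlap, with SEC22 and AT5G46630, and both were lowest in ttg1 replicate 4. Among vesicle coat genes, AT5G46630, listed as AP2M of the clathrin adaptor, had -0.39, the clathrin-associated TPLATE -0.31, and the SEC31 genes AT1G18830 and AT3G63460 0.27 and 0.12. Of the autophagy partners 1 of 11 was measured, RAPTOR1, a partner of the TOR kinase, with 0.1. ELC, an ESCRT-I subunit, had -0.03, and AT2G28390, listed as MON1, a regulator of late endosomal RAB exchange, had 0.13.

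Gene position was a feature the choice by name did not use. ATG8C has 7 measured neighbours within 5 protein-coding genes on either side in the RefSeq order, and 3 of them were lower in ttg1, beside 3.96% of all tested probe sets. AT1G62030, the next gene, had a log2 change of -1.28 (adjusted p 0.000218 in limma), AT1G62050, 2 genes to the other side, had -0.56 (0.00478), and AT1G62070, 4 genes away, had -6.74 (6.01e-09). AT1G62045, between ATG8C and AT1G62050, had 0.09 and did not pass. Of the 4 measured neighbours of VPS24.1 and the 4 of PRA1.B4 in the same window none passed, with adjusted p from 0.154 to 0.926 in limma. Those of VPS24.1 all come after it in the RefSeq order, so the side before it was not covered. The windows were looked at after the calls were known.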

How the data were processed

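Total RNA was labelled with biotin and hybridised to ATH1 arrays, and genotype and replicate number were taken from the sample titles. Per the submitters' processing notes, RMA made the deposited log2 values; no version is given. Row medians are 0 to within 5e-07, which shows that the authors' log2 values were centred for each probe set, a step read from the values and not described. Signal over background is unknown and no dim probe set could be removed.

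Of 22810 probe sets, 64 controls were left out. The difference ttg1 minus Ler was fitted to 8 arrays without covariates in R 4.3.3, using lmFit and eBayes of limma 3.58.1 (two-sided), and adjusted with Benjamini-Hochberg over 22746 probe sets. The step was run on simulated data with known changes. The pass check there covered only changes larger than any of the 28 genes showed. Genes came from the platform annotation and locus tags from RefSeq (TAIR10.1), which matched all 28 genes, each with 1 probe set. Possible cross-hybridisation between family copies was not tested. Members and lists were chosen with earlier results of these data known. Values were printed per array for genes past the threshold, the largest rise and fall of each name family and the 5 widest spreads (9 genes); other values were picked after being seen, to account for every gene. No sequences of these genes were used here.

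Replicate numbers do not pair the samples by the labels, and deviations of same-numbered arrays correlated at 0.0769, 0.0318, -0.313 and 0.482. Between differently numbered arrays the correlations ran from -0.579 (ttg1 replicate 4 with Ler replicate 1) to 0.448 (ttg1 replicate 2 with Ler replicate 1). Alternatives were a block for the replicate number, centring of arrays, quantile normalization, robust eBayes, array weights, a threshold of 0.01, averaging by gene and leaving out each array.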

Additional observations from a re-analysis of the deposited data

Results flagged for a closer look

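Among the 9 genes with values named by rule, 18 groups of 4 arrays were tested for an outlying array, and 2 held one. Chance gives about 1 in 20 for groups not picked by their spread. Both flagged genes, VPS60.1 and PRA1.B6, were named for their wide spread, so that share is no measure for them. VPS60.1 in ttg1 replicate 1 was at -0.81, while the other mutant arrays lay between -0.15 and -0.07. Without that array its log2 change was -0.37 (adjusted p 0.0602 in limma). PRA1.B6 in Ler replicate 4 was at -0.08, while the other wild-type arrays lay between 0.12 and 0.14.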

How the results depend on the processing

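The 3 traffic genes called lower were the same with array weights, centring of arrays, averaging by gene, robust eBayes and the replicate block. VPS60.1 joined them with quantile normalization, where 7.84% of all tested probe sets passed. At a threshold of 0.01 the count was 1, PRA1.B4, beside 2.31% of all tested probe sets. With 1 array left out it ranged from 1 to 2 of the 28 genes, beside 2.96% to 5.21% of all tested probe sets. It was 1, PRA1.B4 alone, without Ler replicate 2 or 3 or ttg1 replicate 3 or 4. In these fits 2.96%, 3.24%, 4.74% and 5.07% of all tested probe sets passed, in that order. Over all probe sets the count of 1300 became 526 at a threshold of 0.01 and 700 when 13356 genes were tested in place of probe sets. It was 1970 with the replicate number as a block, 1937 with array weights and 1784 with quantile normalization. Centring of arrays gave 1305 and robust eBayes 1308. With 1 array left out the count ranged from 673 to 1184. The block kept the 3 calls with adjusted p of 0.00558 for VPS24.1, 0.00912 for PRA1.B4 and 0.0166 for ATG8C in limma; the numbers are not known to pair samples. The sign of 23 of the 28 log2 changes was kept in all 15 settings. The threshold of 0.01, robust eBayes, the replicate block and averaging by gene leave these log2 changes as they were. No sign could change there, so those settings say nothing on its stability. It changed for PRA1.A1, ATG8F, ATG8E, PRA1.G1 and PRA1.F1, all near 0. ATG8E, at -0.03, was 0.11 with array weights, 0.05 with quantile normalization, and from -0.15 to 0.07 with 1 array left out (0, 0.07 and 0.04 without Ler replicate 3, ttg1 replicate 1 and ttg1 replicate 4). The cause of these changes was not tested. Centred values hide signal over background, so how far dim signal limits each gene is unknown.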
